A study of Mus musculus with 17 samples.

Results

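The miR-379/miR-410 cluster is a run of microRNA (miRNA) hairpins in the imprinted DLK1/DIO3 domain of mouse chromosome 12. Its members were taken by name alone, as every row of the miRNA count table named for 1 of 39 numbers assigned to the cluster, whichever arm of the hairpin it came from. The table held 44 such rows of 476 in all. They came from 31 of the 39 numbers, and miR-1197, miR-758, miR-666, miR-654, miR-539, miR-544, miR-412 and miR-410 had no row. Every listed miRNA of any kind reached 10 counts in at least 1 library. Of the 44 rows, 19 were 5p arms, 24 were 3p arms and miR-453 carried no arm in its name. Both arms were listed for 13 hairpins.

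The samples were hepatocytes of C57BL/6J mice with the ApcDHep genotype, 3 months old, in which Apc, the scaffold of the complex that degrades β-catenin, is lost from liver cells. All animals had been injected 1 month earlier with AAV8 that delivers SaCas9 constructs, all were given tamoxifen (2 mg, 7 days), and cells were isolated by collagenase perfusion. In 1 group, labelled DLK1DWRE and called WRE-edited here, the constructs were directed at a site bound by β-catenin that lies upstream of this domain. In the control group, labelled ROSA26 and called Rosa26-edited here, they were directed at the Rosa26 locus, so that Apc loss, virus, nuclease and tamoxifen were shared by both groups. There were 3 miRNA-seq libraries of each group, with 6 RNA-seq libraries of the WRE-edited and 5 of the Rosa26-edited group. The labels do not name the promoter behind the tamoxifen-driven loss of Apc. The comparison asks whether the miRNAs of the cluster differ in level when that site is edited. The sources used here do not give the share of alleles edited in each library. Nor do the labels name a separate animal for each library of a group, so that the spread behind each p-value may be technical.

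The hairpins of the cluster are transcribed from the maternally inherited chromosome together with the long non-coding RNAs Meg3, Rian and Mirg. Drosha and then Dicer cut each hairpin into a duplex, and 1 or both arms are loaded into Argonaute, where bases 2 to 8, the seed, choose the mRNAs that are repressed. The cluster is known for its expression in brain and placenta and, in the liver, for a part in metabolic adaptation around birth. The domain is a known site of activation in liver tumours, those with active β-catenin among them.

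In the RefSeq annotation of GRCm38.p6 the cluster ran from the start of Mir379 to the end of Mir410 at chr12:109709060-109743795, over 34.7 kb on the plus strand. Its hairpins lay downstream of Rian (chr12:109603945-109661716), and the distal ones lay within Mirg (chr12:109734981-109749458). Of the 31 listed hairpins, 23 lay between Rian and Mirg and 7 within Mirg. The other, miR-3544 (chr12:109585813-109585873), lay on the minus strand outside the run. miR-299b (chr12:109710645-109710693) also lay on the minus strand, opposite miR-299a.

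Mature sequences were matched for 41 of the 44 members in the RefSeq table of GRCm38.p6. The seeds differed widely, with 39 distinct seeds among the 41. The sequences of the 12 most abundant members are shown first because they carried most of the signal of the cluster; capitals mark the seed.
miR-379-5p: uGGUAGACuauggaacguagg
miR-376b-3p: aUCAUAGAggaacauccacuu
miR-411-5p: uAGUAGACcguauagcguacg
miR-541-5p: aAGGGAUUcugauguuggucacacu
miR-409-3p: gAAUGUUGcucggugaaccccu
miR-134-5p: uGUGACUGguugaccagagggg
miR-382-5p: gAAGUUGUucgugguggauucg
miR-381-3p: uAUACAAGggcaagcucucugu
miR-300-3p: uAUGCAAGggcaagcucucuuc
miR-485-3p: aGUCAUACacggcucuccucuc
miR-494-3p: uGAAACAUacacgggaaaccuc
miR-154-5p: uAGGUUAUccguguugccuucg

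The next sequences belong to members with the smallest p-values that are not among the 12 above, to the members that share a seed with 1 of them, and to the 2 members whose difference ran against the rest (miR-453 and miR-382-3p). Capitals mark the seed here too.
miR-299a-3p: uAUGUGGGacgguaaaccgcuu
miR-299b-3p: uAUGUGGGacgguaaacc
miR-299a-5p: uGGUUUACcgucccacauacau
miR-379-3p: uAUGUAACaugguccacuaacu
miR-411-3p: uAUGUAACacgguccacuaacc
miR-496a-3p: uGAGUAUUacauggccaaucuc
miR-543-3p: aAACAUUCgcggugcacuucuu
miR-1193-3p: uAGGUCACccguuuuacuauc
miR-154-3p: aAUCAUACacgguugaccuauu
miR-453: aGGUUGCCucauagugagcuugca
miR-382-3p: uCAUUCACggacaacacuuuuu
Only 2 seeds occurred more than once among the 41 sequences. AUGUAAC was shared by miR-379-3p and miR-411-3p, whose full sequences differ at 2 bases, and AUGUGGG was shared by miR-299a-3p and miR-299b-3p. The listed miR-299b-3p and miR-299b-5p sequences are contained whole in those of miR-299a, so reads could be split between these hairpins and their 4 values are uncertain. miR-300-3p and miR-381-3p differ at 3 bases, as do miR-376a-3p and miR-376b-3p, and the sources used here do not say how the counting treated mismatches.

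The cluster made up a small part of the miRNA counts, and that part was smaller in every WRE-edited library than in any control. miRNA-seq totals were 1393509 to 2011383 counts per library, and miR-122-5p, the dominant hepatocyte miRNA, took 58.1% to 71.5% of them. The 44 members together held 0.392% (95% exact binomial interval 0.383 to 0.401), 0.373% (0.363 to 0.383) and 0.303% (0.296 to 0.311) of the counts of WRE-edited libraries 1, 2 and 3. In Rosa26-edited libraries 1, 2 and 3 they held 0.918% (0.905 to 0.932), 0.477% (0.466 to 0.487) and 0.416% (0.406 to 0.426). These intervals cover counting error only, and the 2 groups did not overlap.

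On the CPM scale (counts per 1000000 after TMM scaling), used for all miRNA levels below, the members summed to 3617, 3195 and 3292 CPM in the WRE-edited libraries. They summed to 8484, 4907 and 5114 CPM in the Rosa26-edited ones. The group values were 3368 ± 220.9 CPM (SD, n = 3) and 6168 ± 2008 CPM (SD, n = 3), a ratio of 1.83. The WRE-edited libraries lay close together, and Rosa26-edited library 1 stood well above the other two controls. Without that library the ratio was 1.49. In bulk RNA, fewer cells that express the cluster and less of its RNA per cell cannot be told apart.

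The sum rested on few members. The 12 most abundant held 86.3% of the summed level, and miR-376b-3p, miR-379-5p and miR-411-5p alone held 48.5%. Mean levels over the 6 libraries ran from 2.24 to 850 CPM, with a median of 21.8 CPM.

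**Figure D1:**
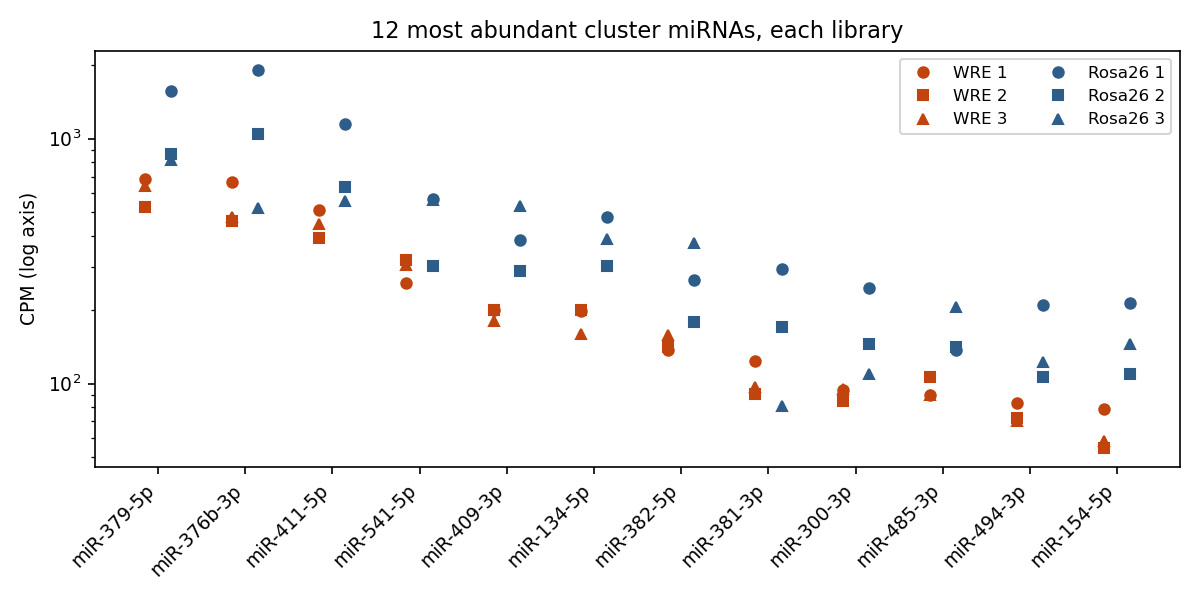
Levels of the 12 most abundant cluster miRNAs in CPM (log axis) in each of the 3 WRE-edited (orange) and 3 Rosa26-edited (blue) libraries, ordered by mean level. The groups do not overlap for 9 of them, for miR-376b-3p and miR-541-5p 1 control library lies among the WRE-edited ones, and for miR-381-3p 1 control lies below all of them.

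Most members had lower levels in the WRE-edited libraries, by a typical factor of a little under 2, but edgeR called no member on its own and DESeq2 called 2. After the filter on low counts 35 of the 44 members were tested, and 33 of the 35 had a negative log2 fold change (WRE-edited over Rosa26-edited). Of all 355 miRNAs tested, 50.7% had a negative value. The median log2 fold change of the tested members was -0.89, equal to 1.86-fold, and the median over all miRNAs tested was -0.01. Values of single members ran from -1.41 (miR-543-3p) to 0.77 (miR-453).

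By edgeR's quasi-likelihood test with Benjamini-Hochberg adjustment over the 355 miRNAs, 0 of the 35 tested members had an adjusted p under 0.05 (background 0.0% of miRNAs lower and 0.0% higher), and the smallest was 0.168. At an unadjusted p under 0.05, 23 members were lower, beside 9.01% of all miRNAs tested, and miR-453 was higher, beside 1.97%. DESeq2, the other tool run, called 2 members lower, miR-134-5p and miR-154-5p, beside 1.13% of all miRNAs, which are 4 miRNAs. The other 2 of those 4, miR-127-3p and miR-337-5p, come from the same domain. The count of 23 fell to 15 without WRE-edited library 1, to 12 without WRE-edited library 3, to 11 without Rosa26-edited library 1 and to 14 when scaled by library size only.

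For 22 of the 44 rows all 3 WRE-edited libraries were below all 3 controls, and for no row were all 3 above. Among the tested members the count was 20 of 35. The rows of the 22 that were not tested, miR-380-3p and miR-376a-5p, reached 10 counts only in controls, which partly set their direction. Over all 476 rows every edited library lay below every control for 8.82%. Over the tested miRNAs the share was 10.7% in that direction and 3.38% in the other. When scaled by library size only, the count of 22 became 13.

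The 2 members called by DESeq2 were miR-134-5p and miR-154-5p. miR-134-5p, known in neurons for limiting the growth of dendritic spines, was at 197, 200 and 159 CPM in the WRE-edited libraries and at 481, 302 and 390 CPM in the Rosa26-edited ones. The lowest control lay well above the highest edited library. The log2 fold change was -1.08 ± 0.25 (SE), with an adjusted p of 0.168 by edgeR and 0.0254 by DESeq2.

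For miR-154-5p the levels were 79.0, 54.7 and 58.3 CPM in the WRE-edited libraries against 213, 110 and 145.4 CPM in the controls, again without overlap. Its log2 fold change was -1.29 ± 0.31, with an adjusted p of 0.168 by edgeR and 0.0228 by DESeq2. The other arm of this hairpin, miR-154-3p, was at 8.57, 11.7 and 8.63 CPM against 40.4, 16.0 and 14.7 CPM. The lower controls came much nearer to the edited libraries than Rosa26-edited library 1 did, and without that library the log2 fold change of miR-154-3p went from -1.33 to -0.63.

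The most abundant members showed the same direction with a wider spread among controls. miR-379-5p, described in liver as a glucocorticoid-responsive regulator of lipoprotein secretion, was at 686, 527 and 643 CPM in the WRE-edited libraries and at 1566, 863 and 815 CPM in the controls. Its means were 618.5 ± 82.2 and 1081.5 ± 420.3 CPM (SD, n = 3), and the groups did not overlap. The log2 fold change was -0.81 ± 0.29, with an edgeR adjusted p of 0.283.

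miR-376b-3p was at 664, 462 and 479 CPM in the WRE-edited libraries and at 1914, 1041 and 522 CPM in the controls. Here Rosa26-edited library 3 fell inside the range of the edited libraries, so the groups overlapped. The log2 fold change was -1.12 ± 0.41 (edgeR adjusted p = 0.291), and without Rosa26-edited library 1 it was -0.51. The miR-376 family is known for adenosine-to-inosine editing within its hairpins, and the sources used here do not say how such reads were counted.

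miR-411-5p was at 510.5, 394 and 447 CPM against 1146, 638 and 557 CPM. All controls lay above all edited libraries, by a small margin for library 3. miR-541-5p was at 258, 319 and 305 CPM against 567.9, 303 and 564.5 CPM, and Rosa26-edited library 2 lay within the edited range.

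miR-409-3p was at 200, 200 and 181 CPM in the WRE-edited libraries and at 386, 288 and 529 CPM in the controls. Unlike miR-379-5p, it was highest in Rosa26-edited library 3. Its log2 fold change was -1.05 ± 0.27 (edgeR adjusted p = 0.168, DESeq2 adjusted p = 0.0533).

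miR-382-5p was likewise highest in Rosa26-edited library 3, with 137, 141.4 and 157.5 CPM in the edited libraries and 264, 178 and 373 CPM in the controls. miR-485-3p followed, with 89.5, 106 and 89.5 CPM against 137, 141.6 and 205 CPM. In both, the controls lay above every edited library.

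miR-300-3p and miR-381-3p, neighbours with closely similar sequences, were both lowest among the controls in library 3. miR-300-3p was at 93.8, 84.8 and 94.9 CPM against 246, 145.2 and 110 CPM. miR-381-3p was at 123, 91.0 and 97.1 CPM against 293, 171 and 81.2 CPM, and this last control lay below all edited libraries. miR-494-3p, the remaining member of the 12, was at 83.3, 72.5 and 70.1 CPM against 209, 106 and 123 CPM, without overlap.

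Among the less abundant members, the most negative log2 fold changes belonged to miR-543-3p and miR-299a-3p. miR-543-3p was at 13.8, 12.9 and 15.6 CPM in the WRE-edited libraries and at 52.1, 20.1 and 40.2 CPM in the controls, with a log2 fold change of -1.41 ± 0.38 (edgeR adjusted p = 0.168). miR-299a-3p was at 18.6, 12.9 and 13.5 CPM against 45.1, 24.3 and 47.2 CPM, a log2 fold change of -1.36 ± 0.35 (edgeR adjusted p = 0.168). Neither overlapped between groups, and in both Rosa26-edited library 2 was the lowest control.

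miR-496a-3p showed a tight edited group, at 8.57, 7.38 and 8.09 CPM, below 26.3, 16.0 and 16.2 CPM in the controls. Its log2 fold change was -1.29 ± 0.34 (edgeR adjusted p = 0.168). miR-1193-3p was at 21.9, 26.4 and 23.2 CPM against 66.2, 38.5 and 39.4 CPM, and miR-299a-5p at 67.1, 74.4 and 64.2 CPM against 147, 92.4 and 140.7 CPM. For these 3 members the groups did not overlap.

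Members that share a seed were set side by side. miR-379-3p and miR-411-3p had log2 fold changes of -1.09 ± 0.36 and -0.77 ± 0.34 (SE). miR-299a-3p and miR-299b-3p had values of -1.36 ± 0.35 and -1.07 ± 0.36. These pairs are no independent measurements where reads of 1 could be counted for the other.

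**Figure D2:**
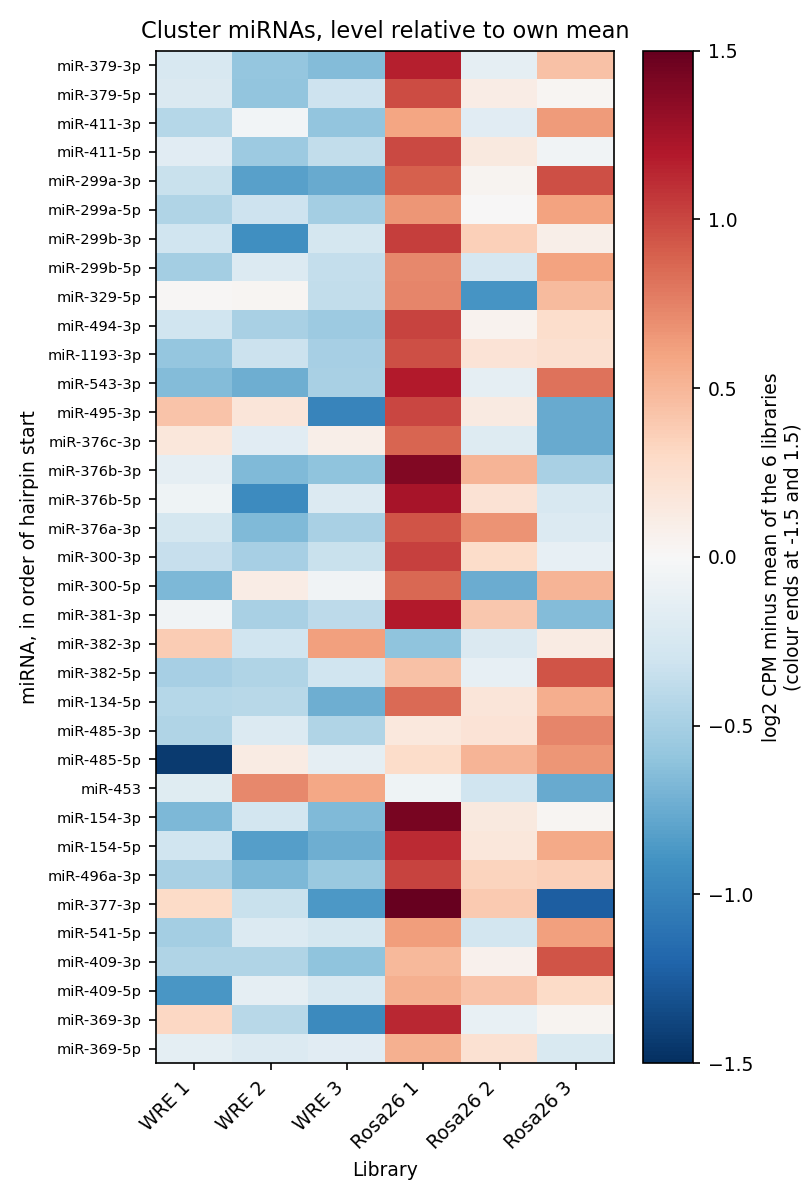
Log2 CPM of the 35 tested cluster miRNAs in each library, relative to the mean of that miRNA over the 6 libraries (rows in order of hairpin start; colours end at -1.5 and 1.5). Rosa26-edited library 1 is the highest library for 27 of the 35, and miR-453 and miR-382-3p run against the other rows.

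Rosa26-edited library 1 stood apart from the other controls across the cluster. It was the highest library for 31 of the 44 members and for 27 of the 35 tested, and Rosa26-edited library 3 was the highest for 6 of the tested ones. The lowest control was library 2 for 17 tested members, library 3 for 15 and library 1 for 3. When Rosa26-edited library 1 was left out, the median log2 fold change of the cluster was -0.60, with 31 members negative. Leaving out any other single library gave medians between -0.98 and -0.86. Without it the edited libraries were below the 2 remaining controls for 22 of the 44 rows, the same count as with it. Apart from rescaling, leaving out a library cannot lower this count, so it is no check on that library.

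The controls also differed from each other with the base composition of the miRNA. Across 33 tested members with a sequence, the share of G and C bases in the mature miRNA had a Spearman's rho of 0.45 with the log2 difference between Rosa26-edited library 3 and library 1. Across 269 tested miRNAs outside the domain the rho was 0.40, so the relation was not limited to the cluster. With the log2 fold change between the groups the rho was -0.04 in the cluster and 0.12 outside the domain. These correlations are across miRNAs that share 2 or 6 libraries and are given as a description. The part of base composition in the differences between controls was not tested further.

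**Figure D3:**
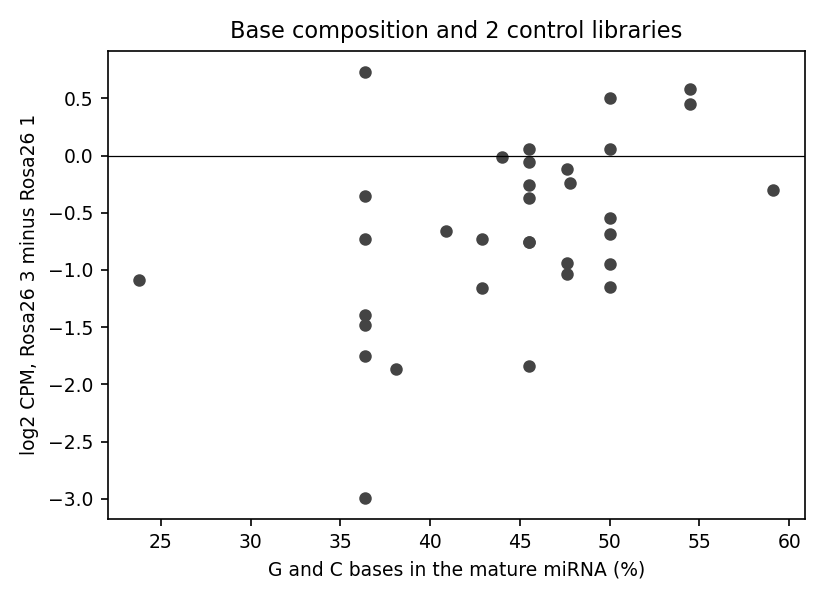
Log2 CPM difference between Rosa26-edited libraries 3 and 1 (vertical axis) against the percentage of G and C bases in the mature miRNA (horizontal axis), for 33 tested cluster members with a sequence. Most points lie below 0, and those with fewer G and C bases lie lower on the whole (Spearman's rho 0.45).

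miR-453 and miR-382-3p were the only tested members with a positive log2 fold change. miR-453 was at 76.7, 143.8 and 130 CPM in the WRE-edited libraries and at 83.1, 70.5 and 51.0 CPM in the controls. WRE-edited library 1 fell inside the control range, so the groups overlapped. The log2 fold change was 0.77 ± 0.32, with an unadjusted p of 0.0375 and an adjusted p of 0.383 by edgeR. It stayed positive, from 0.44 to 1.06, under every alternative run, and its adjusted p ranged from 0.209 to 0.873. The hairpin of miR-453 lies within Mirg, between those of miR-485 and miR-154, whose members had negative values.

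miR-382-3p was at 9.52, 5.53 and 11.3 CPM in the edited libraries and at 4.23, 5.93 and 7.73 CPM in the controls, with raw counts of 9 to 21 per library. The log2 fold change was 0.61 ± 0.40 (edgeR adjusted p = 0.773). The other arm of its hairpin, miR-382-5p, had a log2 fold change of -0.90 ± 0.29 (edgeR adjusted p = 0.245). The log2 ratio of 5p to 3p counts was 3.85, 4.68 and 3.8 in the edited libraries and 5.97, 4.91 and 5.59 in the controls, so the ratios of the groups did not overlap. This hairpin was singled out after its values were seen, and the difference between its arms was not tested.

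For the other hairpins the arms went together. Both arms were tested for 11 hairpins, and both had negative log2 fold changes in 10 of them, all except miR-382. The median absolute difference between the arms was 0.21 on the log2 scale over the 11. Tested 5p arms had a median log2 fold change of -0.86 with 14 of 14 negative, and tested 3p arms a median of -1.03 with 19 of 20 negative. The 5p arm was the more abundant in 6 of the 13 hairpins with both arms listed and the 3p arm in 7. The preference was strong in miR-411, where the 5p arm held 96.7% of the counts, and in miR-376b, where the 3p arm held 95.8%, and near balance in miR-369, where the 5p arm held 52.1%.

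The values showed no trend along the cluster. The 25 tested members from hairpins between Rian and Mirg had a median log2 fold change of -0.89, with 24 negative. The 10 tested members from hairpins within Mirg had a median of -0.94, with 9 negative. Spearman's rho between the distance from the start of miR-379 and the log2 fold change was 0.04 over the 35 members, and rho between the mean level and the log2 fold change was -0.09. Both are descriptions over members that share the same 6 libraries.

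**Figure D4:**
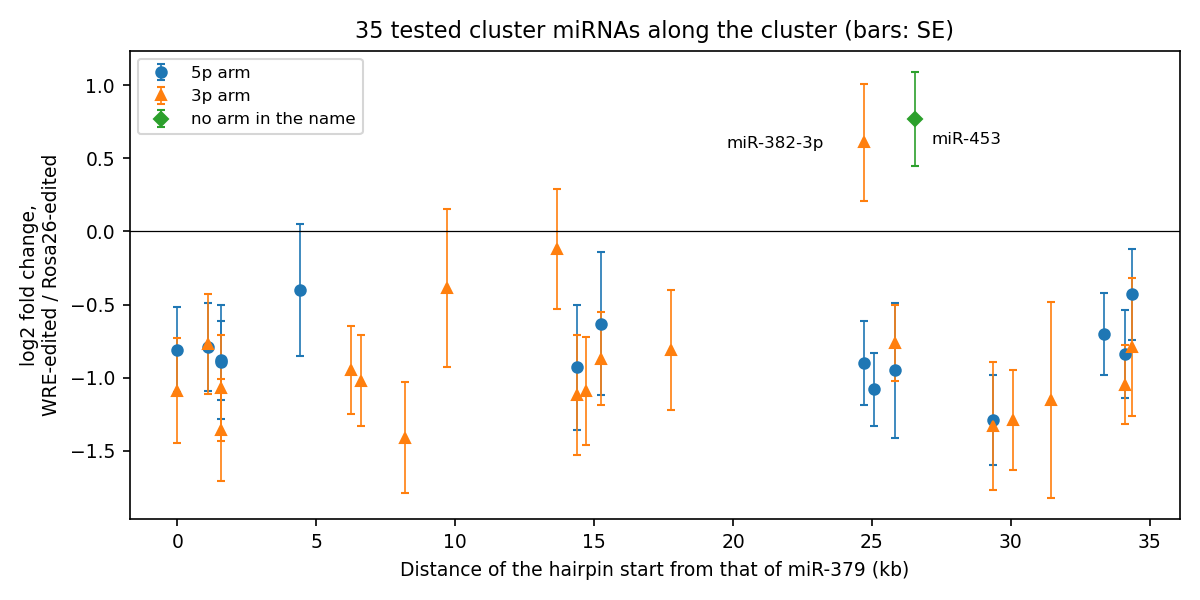
Log2 fold change (WRE-edited over Rosa26-edited; bars are SE) of the 35 tested members against the distance in kb of the hairpin start from that of miR-379, with 5p arms as circles, 3p arms as triangles and miR-453, which has no arm in its name, as a diamond. Members lie below 0 over the whole 34.4 kb, apart from miR-382-3p and miR-453.

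The remaining tested members had weaker or less certain values. miR-409-5p was at 14.3, 24.6 and 22.7 CPM against 39.5, 36.7 and 33.2 CPM, and its controls agreed closely with each other. miR-376a-3p was at 13.3, 9.84 and 11.3 CPM against 32.4, 26.7 and 13.9 CPM. Both had every control above every edited library.

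miR-485-5p, with log2 fold change -0.95 ± 0.46, had every control above every edited library, though by a small margin. miR-299b-5p (-0.89 ± 0.39), miR-300-5p (-0.63 ± 0.49), miR-376b-5p (-0.93 ± 0.43), miR-369-3p (-0.79 ± 0.47) and miR-377-3p (-1.15 ± 0.67) overlapped between groups. For miR-377-3p the controls alone ran from 3.09 to 32.4 CPM. Without Rosa26-edited library 1 its log2 fold change was -0.03, that of miR-369-3p -0.18 and that of miR-376b-5p -0.34. The values nearest 0 belonged to miR-376c-3p (-0.12 ± 0.41), miR-495-3p (-0.39 ± 0.54), miR-329-5p (-0.40 ± 0.45) and miR-369-5p (-0.43 ± 0.31). The sign of the first 3 turned when Rosa26-edited library 1 was left out, to 0.53, 0.28 and 0.05.

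The 9 members that were not tested had mean counts of 4.0 to 7.67 per library and at most 14 in any library. They were miR-3544-5p, miR-380-3p, miR-323-3p, miR-679-5p, miR-667-3p, miR-667-5p, miR-376a-5p, miR-487b-3p and miR-668-5p. All listed rows reached 10 counts in some library, and miR-380-3p, miR-376a-5p, miR-667-5p and miR-487b-3p did so only in controls. Their lower edited level is thus partly set by that limit and is no result about these members. The mean CPM was lower in the edited libraries for 8 of the 9. For miR-380-3p and miR-376a-5p every edited library lay below every control. The exception was miR-3544-5p, the member outside the run, at 1.43, 6.15 and 2.7 CPM in the edited libraries and 1.41, 1.78 and 0 CPM in the controls; the count of 0 allows a level of up to 2.32 CPM.

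The other miRNAs of the DLK1/DIO3 domain, which lie outside the cluster, had values of the same size. Of 17 rows 16 were tested, 15 had a negative log2 fold change, beside 50.7% of all miRNAs tested, and the median was -0.88. edgeR called 0 of the 16 lower and DESeq2 2, beside 0.0% and 1.13% of all miRNAs tested. At an unadjusted p under 0.05 by edgeR 9 were lower, beside 9.01%. miR-127-3p, which is antisense to the imprinted gene Rtl1, was at 923, 989 and 928 CPM in the edited libraries and at 2711, 1382.5 and 2655 CPM in the controls (log2 fold change -1.25 ± 0.28, edgeR adjusted p = 0.168). miR-337-5p had a log2 fold change of -1.26 ± 0.27, miR-434-3p of -0.94 ± 0.25 and miR-434-5p of -1.07 ± 0.34. The controls of these 3 lay above the edited libraries too. Of the 17 rows, 7 had every edited library below every control and 10 overlapped, beside 8.82% of all 476 rows lower without overlap.

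Among all 355 miRNAs tested, 32 were lower at an unadjusted p under 0.05, of which 23 belonged to the cluster and 9 to the rest of the domain. None of the 304 tested miRNAs outside the domain was in that set, whereas 6 of the 7 higher ones were. Without Rosa26-edited library 1 there were 2 lower ones outside the domain, and without Rosa26-edited library 3 there were 4.

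miRNAs of other cell types were measured beside the cluster. The hepatocyte list had 16 rows, 15 tested, with a median log2 fold change of -0.10, and summed to 584385 to 779779 CPM in the edited libraries and 640066 to 945448 CPM in the controls. miR-122-5p itself had a log2 fold change of -0.25 ± 0.23. The endothelial list, led by miR-126a, summed to 17469 to 26975 CPM against 12421 to 17362 CPM. All edited libraries thus lay above all controls, by a small margin. Its 7 tested members had a median of 0.47, with 5 positive and 2 negative. The positive ones were miR-126a-3p, miR-126a-5p, miR-126b-3p and miR-126b-5p, at 0.47 to 0.55, and miR-221-5p at 0.19. The sum and the median thus rest mostly on miR-126a and miR-126b. Values were 0.55 ± 0.24 for miR-126a-3p (edgeR adjusted p = 0.428), -0.29 ± 0.27 for miR-221-3p and -0.11 ± 0.29 for miR-222-3p. Only 1 of the 7 had every edited library above every control, beside 3.38% of all miRNAs tested. The mesenchymal list summed to 1634 to 2166 CPM against 1131 to 1608 CPM, again without overlap and by a small margin. Its median was 0.46 over 6 tested members, 5 of them positive. miR-143-3p, at 0.58 ± 0.23 (edgeR adjusted p = 0.358), was the only 1 of the 6 without overlap between the groups.

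The white blood cell miRNAs summed to 3393 to 4385 CPM against 3057 to 4389 CPM, with a median log2 fold change of 0.03 over 7, and the red cell miRNAs miR-451a, miR-144, miR-486a and miR-486b had no row. The biliary and epithelial list summed to 2434 to 3050 CPM against 1775 to 3333 CPM, with a median of 0.08 over 10. In none of these lists did a miRNA pass the threshold by edgeR or DESeq2. The part of endothelial and mesenchymal RNA in the values of the cluster was not tested.

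Mirg and Rian, long RNAs of which the first overlaps the cluster and the second lies upstream of it, gave a readout apart from the miRNA counts. Mirg, whose gene holds the distal hairpins, was at 11.7, 2.46, 5.65, 13.0, 12 and 7.5 CPM in the 6 WRE-edited RNA-seq libraries (median 9.60). In the 5 Rosa26-edited libraries it was at 47.7, 16.7, 21.2, 55.7 and 36.8 CPM (median 36.8). The highest edited library lay below the lowest control. The log2 fold change with the sequencing run in the model was -2.27 ± 0.47, with an adjusted p of 0.281 by edgeR and 0.00336 by DESeq2. Within the runs that held both groups the log2 differences were -2.23 (r770) and -2.59 (r595), and r711 held no control. The value of r595 rests on WRE-edited library 6 alone, against Rosa26-edited libraries 4 and 5.

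Rian, whose gene ends upstream of the cluster, ranged from 48.7 to 113 CPM (median 67.1) in the edited libraries and from 171 to 405 CPM (median 257) in the controls. Its log2 fold change was -2.30 ± 0.26, with an edgeR adjusted p of 0.0188, and it was the 1 gene of 14393 called lower (background 0.00695%). Within r770 and r595 the differences were -2.25 and -2.28, the latter again with WRE-edited library 6 alone. The edgeR call was lost without WRE-edited library 2, 3, 4, 5 or 6, or Rosa26-edited library 2, where the adjusted p was at most 0.317. DESeq2 gave an adjusted p of 1.2e-16.

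**Figure D5:**
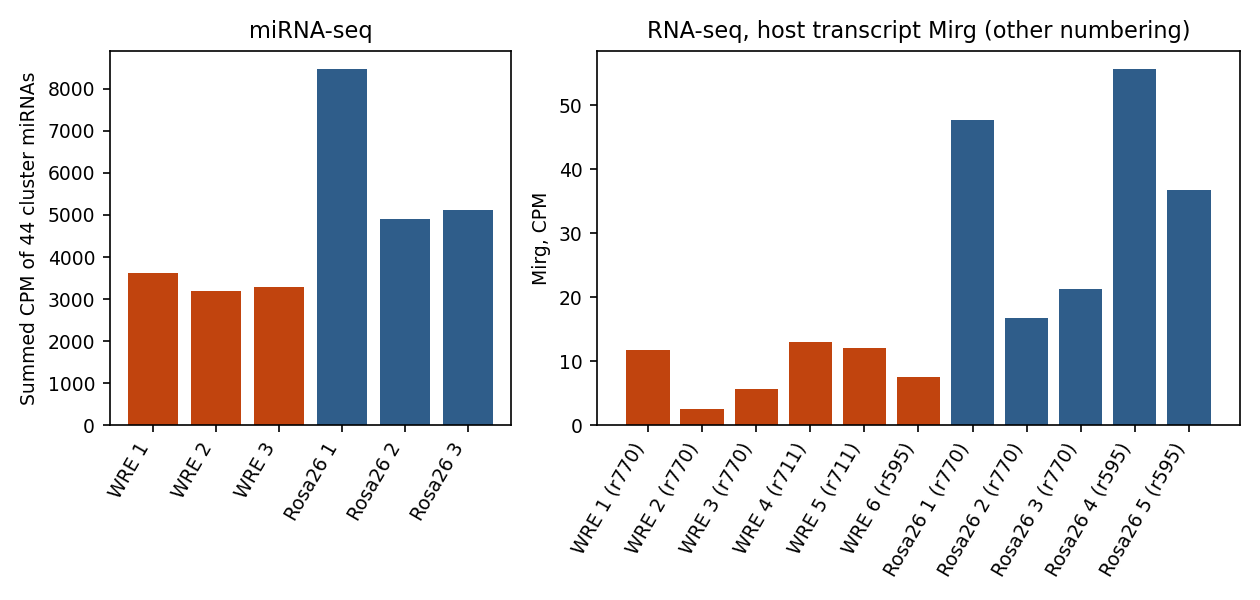
Summed CPM of the 44 cluster miRNAs in each miRNA-seq library (left) and CPM of Mirg in each RNA-seq library with its run in brackets (right); orange bars are WRE-edited and blue bars Rosa26-edited, and library numbers are separate in the 2 assays. In both panels every edited library lies below every control, with at most 3617 against at least 4907 CPM on the left and at most 13.0 against at least 16.7 CPM on the right.

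The fitted difference was 4.82-fold for Mirg, which holds 7 of the listed hairpins, and 4.94-fold for Rian, which holds none of them, beside a median of 1.86-fold over the tested members of the cluster. These come from different assays, models and partly different libraries, and the difference between them was not tested.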

How the data were processed

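miRNA-seq (3 WRE-edited, 3 Rosa26-edited libraries) was deposited as whole-number counts per mature miRNA, per the file headers, by an aligner and counter not given in the sources used here. RNA-seq (6 and 5 libraries) was deposited as RSEM's expected counts per gene, rounded here; the submitters' processing notes name STAR 2.7.6a, RSEM 1.3.1 and the build GRCm38. Totals were 1393509 to 2011383 and 20727024 to 38935115 counts.

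Members and lists were chosen with earlier results of these data known. One fit per assay covered all features in R 4.3.3 with edgeR 4.0.16: filterByExpr by group (minimum count 10, minimum total 15), TMM, robust quasi-likelihood, two-sided, Benjamini-Hochberg adjustment, threshold 0.05. The miRNA design held the group (4 residual degrees of freedom) and the RNA-seq design run and group. DESeq2 1.42.0 was the other tool. Standard errors are of log2 fold changes, and CPM carries TMM factors.

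The text names the 12 members of highest mean level, the 12 of smallest p and any member opposite in sign to the cluster median. Up to 4 of each other list by p, Mirg and Rian are named too. Further names account for all members of the cluster and all tested members of the endothelial list. Tested on simulated data for the 355 miRNAs, the test recovered 36.7% of 2-fold and 90% of 4-fold differences, with 1 false call. The simulation drew each miRNA independently, with the spread typical of its level. It held no shifts shared by many miRNAs of a library, so recovery in the real libraries may be lower. Replicates of a group differed beyond counting noise in every pair. Alternatives covered scaling, filter, tool, robust estimation, replicate block, run and each library left out; scaling without miR-122-5p and leaving out WRE-edited 2 with Rosa26-edited 3 were added after seeing the data.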

Additional observations from a re-analysis of the deposited data

How the results depend on the processing

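Over 35 tested members and 16 alternatives, 553 of 560 values kept their direction and side of the threshold, 2 passed it with DESeq2 and 5, in 3 members, changed sign. The median log2 fold change of the cluster ran from -0.98 to -0.60 with single libraries left out, the value nearest 0 without Rosa26-edited library 1. Scaling by library size only moved the median of all miRNAs from -0.01 to 0.14 and that of the cluster to -0.76, a distance of -0.90 as against -0.89; 31.3% of all miRNAs were then negative, beside 33 of the 35 members. It gave 14 members lower at an unadjusted p under 0.05, and 13 rows without overlap between the groups in place of 22. The latter count was 22 to 28 with single libraries left out, where apart from rescaling it cannot fall. With single libraries left out the count at an unadjusted p under 0.05 ran from 11 to 24, and that outside the domain from 0 to 4; it was 4 without both WRE-edited 2 and Rosa26-edited 3. DESeq2 called 2 cluster members, 2 other miRNAs of the domain and 4 in all, where edgeR called 0. Signs turned with single libraries left out for miR-329-5p (-0.74 to 0.05), miR-495-3p (-0.71 to 0.28) and miR-376c-3p (-0.40 to 0.53, and 0.00 without WRE-edited library 2), each highest without Rosa26-edited library 1. The median of the blood cell list ran from -0.12 to 0.27 with single libraries left out, and that of the endothelial list was 0.23 without WRE-edited 2 and Rosa26-edited 3. The cause of these changes was not tested.

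The replicate numbers did not pair the miRNA libraries: same-numbered libraries had correlations of deviations of 0.20, -0.28 and 0.04. With the replicate number as a block the median of the cluster was -0.86, with 32 members negative, 22 at an unadjusted p under 0.05 and 0 past the threshold, and miR-376c-3p was at 0.02. With the block and the run, Mirg was at -2.22 (edgeR adjusted p = 0.0303) and Rian at -2.25 (0.0303). Replicates 4 and 5 were in r711 when WRE-edited and in r595 when Rosa26-edited, and WRE-edited replicate 6 had no partner. The group difference of this fit thus came from the r770 libraries alone. They were paired by numbers that the labels do not give as pairs, so the smaller p of Mirg is no stronger evidence.

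Apart from the fit with the block, Mirg passed the threshold by DESeq2 (-2.26, adjusted p = 0.00336) and with no filter on low counts (-2.28, edgeR adjusted p = 5.96e-34). The log2 fold change with no filter was nearly that of the main fit (-2.27, edgeR adjusted p = 0.281). The fall in p thus came with the change of filter and not with a larger difference, and it is no stronger evidence. Rian did not pass it without the run term (-1.93, edgeR adjusted p = 0.0755) or in r770 alone (-2.26, 0.171), and ran from -2.45 to -2.11 with single libraries left out (edgeR adjusted p from 0.00464 to 0.317). Depth left 9 members, at mean counts of 4.0 to 7.67, outside the test.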
